A study of Sebastes schlegelii with 6 samples.

Results

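The last machines of the mitochondrial respiratory chain, complex III, complex IV and ATP synthase, were followed in livers of starved and fed Korean rockfish (Sebastes schlegelii, a marine teleost). The 45 genes described here encode their nuclear-encoded subunits and factors that work with them. They were taken from a table of 19303 genes by their deposited symbol, ignoring case: every symbol starting with uqcr, cox4, cox5, cox6, cox7, cox8 or atp5, and the symbols cyc1 and cycs. The rule gave 13 genes of complex III, 12 of complex IV and 20 of ATP synthase. They carry 30 different symbols, and 13 of these symbols are shared by 2 or 3 genes, 28 genes in all, so each gene is identified by its symbol and the number that ends its deposited identifier. No symbol began with cox4 and none was cycs. Some genes outside the rule carry the product name of a cytochrome c or of a complex IV subunit; 8 of them, and 2 named NDUFA4, are described after the 45.

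Electrons from food pass along the respiratory chain to oxygen. Complex III takes them from ubiquinol and hands them to cytochrome c, complex IV takes them from cytochrome c and reduces oxygen to water, and both steps help build a proton gradient across the inner mitochondrial membrane. ATP synthase lets protons back through the rotating c-ring of its membrane part, FO, and uses the rotation to make ATP in its head, F1. A few core subunits are encoded by mitochondrial DNA and all others by nuclear genes; no gene of the table matched the list of mitochondrially encoded subunits, so the nuclear genes alone are described. The liver uses this ATP for gluconeogenesis and protein synthesis, among other tasks. The roles given for each subunit are those known from mammals and yeast.

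The 3 starved libraries, named A6, C6 and E6, came from livers of fish starved for 72 days, and the 3 fed libraries, named B1, D1 and E1, from livers of fish fed over the same 72 days. Age, sex and strain are not given in the labels. Whether each library is a different fish is not stated either, so the p-values reflect how far these 3 libraries of a group differ, which may be technical. The series title names the question as the response of this fish to starvation. Whole liver was sequenced, so fewer cells of a type and less RNA per cell cannot be told apart.

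Total counts ran from 11623356 in fed B1 to 14716282 in starved E6. Fed B1 stood apart. Across genes, its log2 CPM (counts scaled to a common library size with edgeR's TMM factors) correlated with those of fed D1 and E1 at Pearson r = 0.900 and 0.889, against 0.959 between D1 and E1 and 0.962 to 0.963 among the starved libraries. Of its uniquely mapped reads, the share that was spliced was 41.7%, against 50.7% to 53.3% in the other 5 libraries, and its scaling factor was 0.743, against 0.926 to 1.21. Values without it are therefore given beside those with all libraries. Hepatocyte markers, a list of 38 genes, were abundant in every library. They summed to 210039, 178343 and 217713 CPM in starved A6, C6 and E6. In fed B1, D1 and E1 they summed to 307880, 160555 and 214923 CPM.

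None of the 45 genes passed the test of a difference between starved and fed liver when all 6 libraries were compared. With edgeR's quasi-likelihood test and Benjamini-Hochberg adjustment over 13338 tested genes, 0 of the 45 were under an adjusted p of 0.05, against 688 of all tested genes (5.16%). All 45 passed the filter on low counts, and their lowest adjusted p was 0.193. At an unadjusted p under 0.05 there were 2, beside 21.9% of all tested genes, one higher and one lower in starved livers, and DESeq2 and limma-voom also called 0. The fitted fold changes were below 0 for 38 genes and above 0 for 7, with a median of -0.56 on the log2 scale, beside -0.03 over all tested genes. Their standard errors ran from 0.306 to 0.749 on the log2 scale with a median of 0.479, so a p that misses the threshold does not show that the levels were equal.

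Summed over the 45 genes, the level was 4235, 4021 and 4833 CPM in starved A6, C6 and E6, against 9429, 4151 and 2943 CPM in fed B1, D1 and E1. The means were 4363 ± 421 CPM in starved livers and 5508 ± 3449 CPM in fed livers (SD, n = 3 each), and 3547 CPM in fed D1 and E1 alone. The 3 starved libraries lay close together and inside the range of the fed ones. In these scaled CPM the highest fed library, B1, had more than the sum of the other fed libraries. As a share of all counts, with no scaling, the 45 genes took 0.444, 0.433 and 0.447% in starved A6, C6 and E6. In fed B1, D1 and E1 they took 0.699, 0.503 and 0.311%. By this share B1 was again the highest library but lay below the sum of fed D1 and E1.

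**Figure D1:**
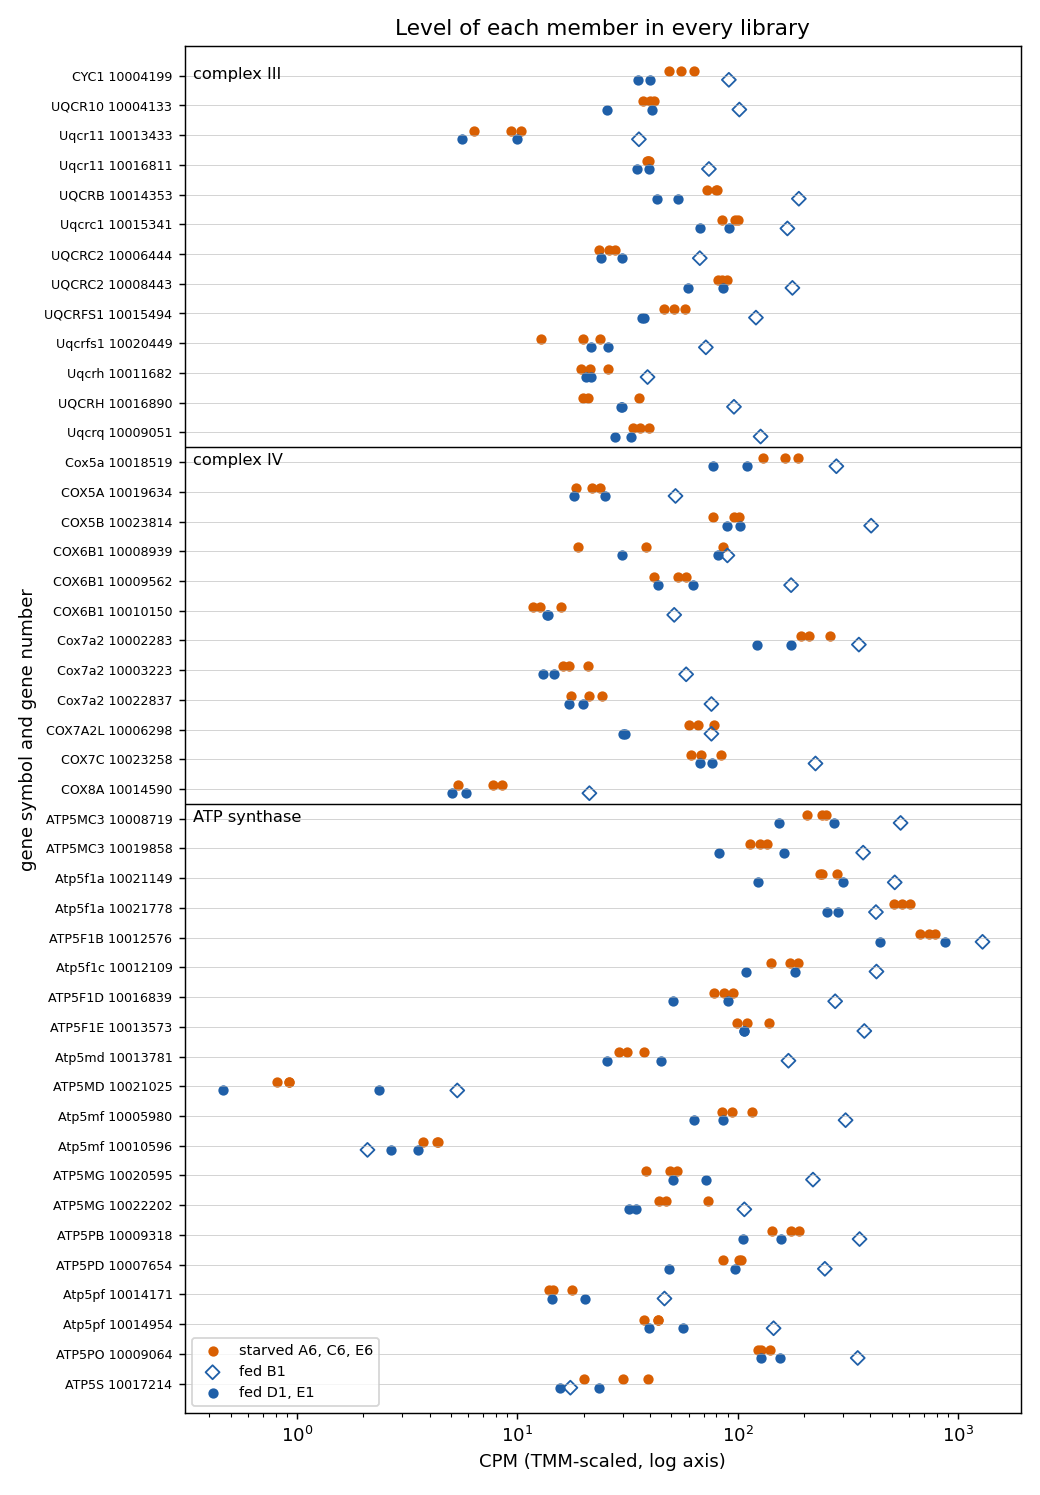
Level of each of the 45 genes in every library, in TMM-scaled CPM on a log axis, with 1 line per gene and the genes grouped by complex; filled orange points are starved A6, C6 and E6, filled blue points fed D1 and E1, and the open blue diamond fed B1. Fed B1 was the highest of the 6 libraries for 41 of the 45 genes, and the share over all tested genes was not counted.

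The share of all tested genes that were highest in fed B1 was not counted. Among the 45 genes, fed B1 was the highest library for 41. The 4 exceptions were COX7A2L, one Atp5f1a gene (10021778), one Atp5mf gene (10010596) and ATP5S. Among the remaining fed libraries, D1 lay above E1 for 33 genes, and E1 was the lowest of all 6 libraries for 23. The starved and fed CPM values did not overlap for 2 genes, both higher in starved livers, Atp5f1a 10021778 and Atp5mf 10010596. Over all tested genes the groups did not overlap for 31.1%. Atp5mf 10010596, with a coding length of 927 bases against 243 for the other Atp5mf gene, was low. It had 3.75 to 4.35 CPM in starved livers and 2.09 to 3.54 CPM in fed livers. In the deposited FPKM, a level per length with no TMM factor, its groups overlapped, with 3.74 FPKM in starved E6 and 4.04 FPKM in fed E1.

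Without fed B1 the median fold change of the group changed sign. Of the remaining fed libraries, E1 had a summed CPM below all starved libraries, while that of D1 lay inside their range. The place of D1 depended on the scaling. As an unscaled share of all counts, D1 lay above all starved libraries (0.503% against 0.433 to 0.447%), and E1 again below them. The median log2 fold change was 0.18, beside 0.00 over all tested genes, with 30 genes above 0 and 15 below. In this comparison of 3 starved with 2 fed libraries, 2 of the 45 genes were higher in starved livers, COX7A2L and Atp5f1a 10021778, where 5.81% of all 13837 tested genes were called higher. None was lower, where 6.5% of all tested genes were called lower. At an unadjusted p under 0.05 there were 7, all higher in starved livers, which is 7 of 45 beside 13.7% of all tested genes. The same 2 genes were called by limma-voom with a quality weight per library, an alternative chosen after seeing the data that keeps fed B1 at a weight of 0.184, against 1.12 to 1.67 for the other libraries. It called 6.82% of all tested genes higher. The levels of starved livers lay above both fed D1 and fed E1 for 11 of the 45 genes and below both for 0, beside 23.1% and 23.7% of all tested genes.

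**Figure D2:**
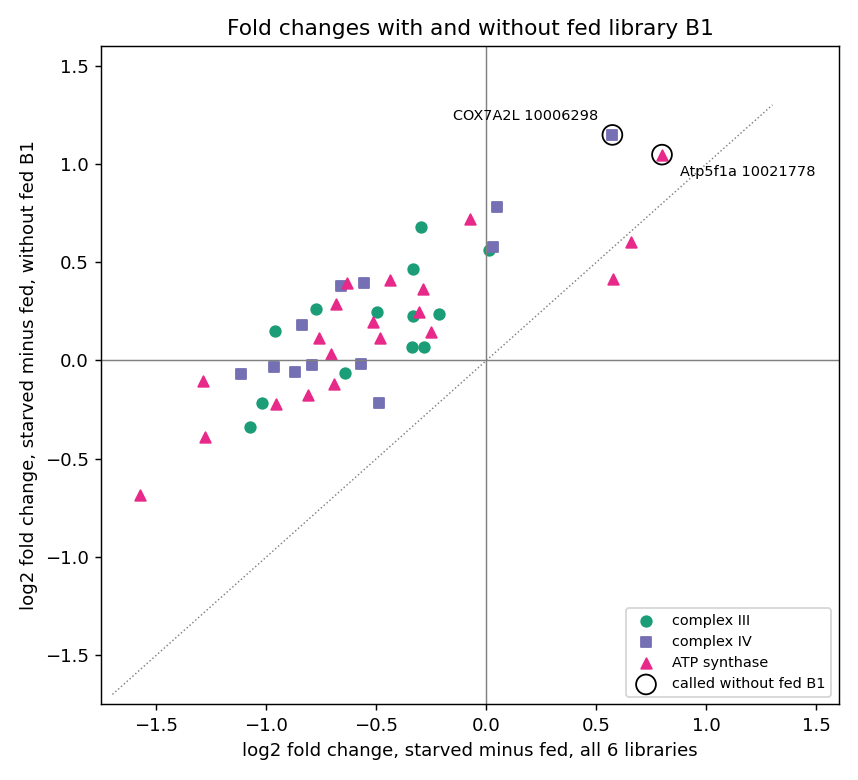
Fitted log2 fold change, starved minus fed, of the 45 genes with all 6 libraries (horizontal) and without fed B1 (vertical), with the complexes marked by colour and shape and a dotted line of equality. With all libraries 38 genes lay below 0, and without fed B1 30 lay above 0; the circled genes, COX7A2L and Atp5f1a 10021778, passed the test without fed B1.

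Among the 45 genes, the excess of fed B1 was larger for those of short coding length. Its CPM over the mean of fed D1 and E1 had a median of 1.58 on the log2 scale over the 45 genes, with a range of -0.48 to 2.26, beside a median of -0.03 over all tested genes. The 33 genes with a coding length under 600 bases had a median log2 excess of 1.68 and the 12 longer ones of 1.28, beside 0.67 and -0.11 over all tested genes of those lengths. Over the 45 genes, which share the same libraries, Spearman's rho between coding length and this excess was -0.58, and over all 13338 tested genes it was -0.33. Cytosolic ribosomal proteins, another group of short and abundant transcripts, had a median log2 excess of 1.70 over 82 tested genes. Their median log2 fold change between starved and fed livers was 0.55 with fed B1 (1 rose, 0 fell) and 1.36 without it (72 rose, 0 fell). Of all tested genes, 5.16% were called with fed B1, and 5.81% rose and 6.5% fell without it. The part of coding length and of the spliced share of fed B1 in these values was not tested.

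**Figure D3:**
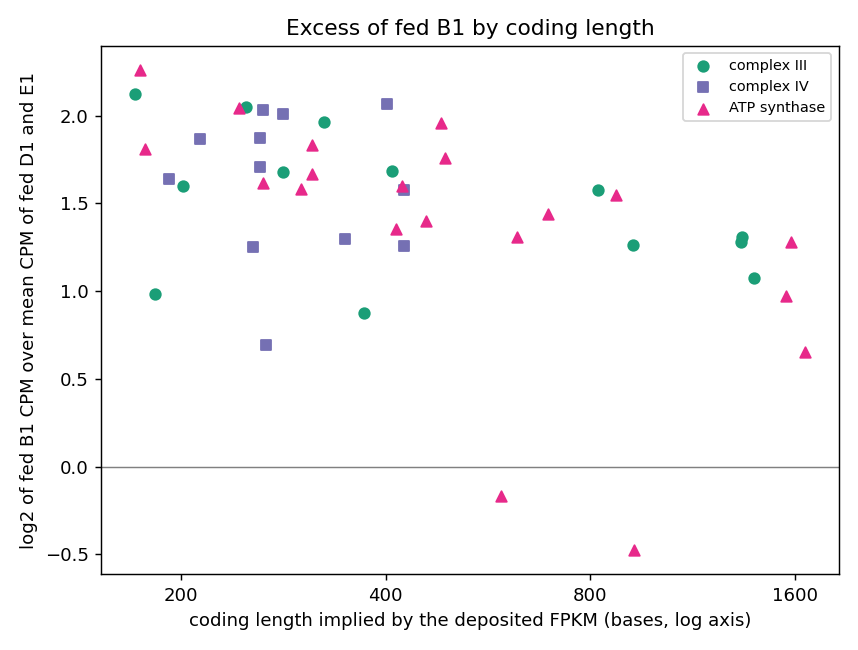
Log2 of fed B1 CPM over the mean CPM of fed D1 and E1 for the 45 genes, against the coding length in bases on a log axis, coloured by complex. All genes but ATP5S and Atp5mf 10010596 lay above 0, and genes with a shorter coding length tended to lie higher (Spearman's rho -0.58, n = 45).

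The other cell types that whole liver can hold were followed through lists of markers. Of 6 tested stellate cell and fibroblast markers 4 fell with all libraries, and 4 fell and 1 rose without fed B1. Their list summed to 96.5, 116 and 96.1 CPM in starved A6, C6 and E6. In fed B1, D1 and E1 it summed to 418, 349 and 274 CPM. Red cell markers summed to 346, 539 and 2125 CPM in starved A6, C6 and E6. In fed B1, D1 and E1 they summed to 2942, 979.5 and 2072 CPM. Of 7 tested, 1 fell with all libraries and 0 without fed B1. Exocrine pancreas markers summed to 17.1, 20.2 and 338 CPM in starved A6, C6 and E6, against 17.7, 72.2 and 13.7 CPM in fed B1, D1 and E1. The high starved sum was that of E6 alone. Of 8 tested, 0 rose and 1 fell with and without fed B1, while the list's median log2 fold change was above 0 (1.83 and 1.46). Of 37 tested hepatocyte markers, summed as given above, 0 rose and 1 fell with all libraries, and 1 rose and 3 fell without fed B1. Of the macrophage, bile duct, endothelial and skeletal muscle markers, 5, 1, 6 and 1 were tested in that order and 0 passed with or without fed B1; skeletal muscle markers summed to 0.441 to 1.49 CPM in starved livers and 1.16 to 1.85 CPM in fed livers. Beside these counts, 5.16% of all tested genes were called with all libraries, and 5.81% rose and 6.5% fell without fed B1. No gene of the whole table was at 0 in every library, so the absence of such genes from the marker lists carries no information. The part of these lists in the levels of the 45 genes was not tested.

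Subunits of 1 complex differed widely in transcript level. Summed over the genes of a symbol and averaged over the 6 libraries, the level per length ran in complex III from 58.4 FPKM for cyc1 to 304 FPKM for uqcr11. In complex IV it ran from 39.3 FPKM for cox8a, a small membrane subunit, to 1007 FPKM for cox7a2. In ATP synthase it ran from 218 FPKM for atp5f1d to 1018 FPKM for atp5mc3, the c-ring subunit present in several copies per enzyme. The gene atp5s, for a factor needed for proton coupling, had 41.4 FPKM. The summed cox7a2 genes had 961, 1024 and 1086 FPKM in starved A6, C6 and E6, against 1395, 735 and 841 FPKM in fed B1, D1 and E1. The summed atp5mc3 genes had 924, 826 and 858 FPKM in starved A6, C6 and E6, against 1633, 1268 and 597 FPKM in fed B1, D1 and E1. The groups overlapped in both, and fed B1 was the highest library.

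Complex III was represented by 13 genes for 9 subunit symbols. With all libraries 0 of them passed the test, beside 5.16% of all tested genes. Their median log2 fold change was -0.34 with all libraries (12 of 13 below 0) and 0.23 without fed B1 (10 of 13 above 0). Per length, in FPKM, the most abundant were UQCRB, one Uqcr11 gene (10016811) and UQCR10, with means of 250.1, 235 and 226 FPKM over the 6 libraries. All 3 are small subunits without a redox centre.

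UQCRB, which binds near the ubiquinone site of cytochrome b, had 72.2, 79.5 and 80.3 CPM in starved A6, C6 and E6, against 189, 53.3 and 43.02 CPM in fed B1, D1 and E1 (log2 fold change -0.30, SE 0.532, edgeR adjusted p = 0.781). The starved values lay above fed D1 and E1 and below fed B1, and the log2 fold change was 0.68 without fed B1 (edgeR adjusted p = 0.0538). UQCR10 had 37.1, 41.8 and 39.8 CPM in starved A6, C6 and E6, against 102, 41.02 and 25.4 CPM in fed B1, D1 and E1 (log2 fold change -0.50, SE 0.466, edgeR adjusted p = 0.572, and 0.25 without fed B1). Here the groups overlapped with and without fed B1.

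The 2 Uqcr11 genes differed in level, with means of 235 and 68.96 FPKM. The higher one, 10016811, had 39.5, 38.7 and 38.99 CPM in starved A6, C6 and E6, against 73.99, 34.9 and 39.4 CPM in fed B1, D1 and E1 (log2 fold change -0.34, SE 0.320, edgeR adjusted p = 0.578, and 0.07 without fed B1). The lower one, 10013433, had 10.3, 6.33 and 9.40 CPM in starved A6, C6 and E6, against 35.6, 9.95 and 5.62 CPM in fed B1, D1 and E1 (log2 fold change -0.96, SE 0.617, edgeR adjusted p = 0.400, and 0.15 without fed B1). Both overlapped between the groups, and fed B1 was the highest library of each.

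A pair of catalytic subunits of complex III were chosen after their values were seen. CYC1, cytochrome c1, which passes electrons on to cytochrome c, had 63.5, 48.6 and 55.4 CPM in starved A6, C6 and E6, against 91.2, 40.01 and 35.3 CPM in fed B1, D1 and E1 (log2 fold change 0.01, SE 0.384, edgeR adjusted p = 0.991). Of the 2 genes for the Rieske iron-sulfur subunit, UQCRFS1 10015494 had 51.4, 46.2 and 57.5 CPM in starved A6, C6 and E6, against 121, 36.96 and 37.7 CPM in fed B1, D1 and E1 (log2 fold change -0.33, SE 0.468, edgeR adjusted p = 0.715). Starved livers lay above fed D1 and E1 for both, and their log2 fold changes without fed B1 were 0.56 and 0.47 (edgeR adjusted p = 0.0911 and 0.123). The other Rieske gene, Uqcrfs1 10020449, had 23.8, 12.8 and 19.8 CPM in starved A6, C6 and E6. Fed B1, D1 and E1 had 71.7, 25.7 and 21.6 CPM of it. Its log2 fold change was below 0 in both comparisons, at -1.08 with all libraries (SE 0.479, edgeR adjusted p = 0.238) and -0.34 without fed B1. The remaining genes of the complex, among them the core subunits Uqcrc1 and UQCRC2, had adjusted p-values of 0.281 or more by edgeR with all libraries.

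Complex IV was represented by 12 genes for 7 symbols, among them COX7A2L, which joins complexes and is described below. With all libraries 0 of 12 passed, beside 5.16% of all tested genes, with a median log2 fold change of -0.62 (9 below 0). Without fed B1, 1 was called higher in starved livers, beside 5.81% of all tested genes. The called gene was COX7A2L. The median of the 12 genes was then 0.08 (6 above 0 and 6 below). The most abundant per length were one Cox7a2 gene (10002283), COX7C and one Cox5a gene (10018519), with means of 829, 473 and 356 FPKM over the 6 libraries.

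COX7A2L, also called SCAF1 or COX7RP, joins complex III to complex IV in respiratory supercomplexes in mouse and zebrafish. It had 60.1, 65.8 and 77.8 CPM in starved A6, C6 and E6, against 75.96, 30.9 and 30.2 CPM in fed B1, D1 and E1, with means of 67.9 ± 9.04 CPM in starved livers and 45.7 ± 26.2 CPM in fed livers (SD, n = 3 each; log2 fold change 0.57, SE 0.391, edgeR adjusted p = 0.431). All 3 starved libraries lay above fed D1 and E1, while fed B1 lay between starved C6 and E6. Without fed B1 its log2 fold change was 1.15, 2.21-fold, and it passed (edgeR adjusted p = 0.0123). In the deposited FPKM, which carry no TMM factor, the groups did not overlap: 181, 204 and 207 FPKM in starved A6, C6 and E6, against 162, 108 and 91.9 FPKM in fed B1, D1 and E1. That separation appeared only without the scaling, and the share of all genes separated in FPKM was not counted. Neither limma fit on log2 FPKM called the gene (limma adjusted p = 0.186 with 1 added and 0.194 with 0.1 added). Over the 16 alternatives its adjusted p ranged from 0.0123 to 0.689.

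Cox7a2, a small membrane subunit of the same family, had 3 genes. The most abundant, 10002283, had 194, 209.9 and 262 CPM in starved A6, C6 and E6, against 355, 123 and 175 CPM in fed B1, D1 and E1 (log2 fold change 0.03, SE 0.417, edgeR adjusted p = 0.975, and 0.58 without fed B1). Gene 10003223 had 20.9, 17.1 and 16.2 CPM in starved A6, C6 and E6, against 58.3, 14.6 and 13.1 CPM in fed B1, D1 and E1 (log2 fold change -0.66, SE 0.548, edgeR adjusted p = 0.523, and 0.38 without fed B1). The third, 10022837, had 21.2, 17.5 and 24.3 CPM in starved A6, C6 and E6, against 75.96, 19.8 and 17.2 CPM in fed B1, D1 and E1 (log2 fold change -0.84, SE 0.546, edgeR adjusted p = 0.408, and 0.18 without fed B1). For the first and the second of them starved livers lay above fed D1 and E1, while for the third they overlapped.

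The subunits on the matrix side of complex IV, COX5A and COX5B, did not pass in either comparison. COX5B, which binds zinc, had 96.5, 76.8 and 101 CPM in starved A6, C6 and E6, against 403, 102 and 89.3 CPM in fed B1, D1 and E1 (log2 fold change -1.12, SE 0.569, edgeR adjusted p = 0.295). Leaving aside genes whose average log2 CPM was under 3, it had one of the 3 lowest fitted fold changes, yet the starved values overlapped fed D1 and E1, and without fed B1 the log2 fold change was -0.07. Cox5a 10018519 had 131, 164 and 188 CPM in starved A6, C6 and E6, against 280.3, 110.2 and 76.9 CPM in fed B1, D1 and E1 (log2 fold change 0.05, SE 0.476, edgeR adjusted p = 0.964, and 0.78 without fed B1). The other gene, COX5A 10019634, had 23.7, 18.4 and 21.8 CPM in starved A6, C6 and E6, against 52.2, 18.1 and 24.9 CPM in fed B1, D1 and E1 (log2 fold change -0.57, SE 0.388, edgeR adjusted p = 0.427, and -0.02 without fed B1). COX7C, another small membrane subunit, had 61.3, 67.9 and 83.7 CPM in starved A6, C6 and E6, against 225, 67.7 and 76.4 CPM in fed B1, D1 and E1 (log2 fold change -0.79, SE 0.472, edgeR adjusted p = 0.364, and -0.02 without fed B1). The 3 COX6B1 genes and COX8A, chosen after their values were seen, had log2 fold changes of -0.87, -0.97, -0.49 and -0.56 in the order COX6B1 10009562, 10010150, 10008939 and COX8A, none of which passed. Without fed B1 these were -0.06, -0.03, -0.21 and 0.40 in the same order.

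ATP synthase was represented by 20 genes: 6 of the F1 head, 2 of the c-ring, 5 of the peripheral stalk, 6 of other FO subunits and ATP5S. With all libraries 0 of 20 passed, beside 5.16% of all tested genes, with a median log2 fold change of -0.58 (17 below 0). Without fed B1, 1 was called higher in starved livers, beside 5.81% of all tested genes. The median was then 0.17 (14 above 0). The most abundant per length were ATP5F1E, one ATP5MC3 gene (10008719) and ATP5F1B, with means of 819.7, 648 and 504 FPKM over the 6 libraries.

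In the F1 head, alpha and beta subunits alternate around the central stalk and beta carries the catalytic sites. Of the 2 alpha genes, Atp5f1a 10021778 had 512, 555 and 608 CPM in starved A6, C6 and E6, against 424, 285 and 254 CPM in fed B1, D1 and E1, with means of 558 ± 48.1 CPM in starved livers and 321 ± 90.4 CPM in fed livers (SD, n = 3 each; log2 fold change 0.80, SE 0.320, edgeR adjusted p = 0.193). Its starved values lay above all 3 fed values, the unadjusted p was 0.0363, and without fed B1 it passed with a log2 fold change of 1.05, 2.07-fold (edgeR adjusted p = 0.0246). Over the 16 alternatives its adjusted p ranged from 0.0195 to 0.449. The other alpha gene, Atp5f1a 10021149, had 236, 240.4 and 282 CPM in starved A6, C6 and E6, against 516, 302 and 123 CPM in fed B1, D1 and E1 (log2 fold change -0.31, SE 0.481, edgeR adjusted p = 0.745, and 0.25 without fed B1). Its groups overlapped.

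The beta subunit ATP5F1B had 735, 673 and 784 CPM in starved A6, C6 and E6, against 1291, 874 and 443 CPM in fed B1, D1 and E1 (log2 fold change -0.25, SE 0.416, edgeR adjusted p = 0.761, and 0.15 without fed B1). The epsilon subunit ATP5F1E, a small part of the central stalk, had 99.1, 110.0 and 138 CPM in starved A6, C6 and E6, against 375, 106 and 107 CPM in fed B1, D1 and E1 (log2 fold change -0.76, SE 0.513, edgeR adjusted p = 0.424, and 0.12 without fed B1). For the beta subunit all starved values lay between fed E1 and fed D1, and for epsilon starved A6 lay below all fed values while starved C6 and E6 lay between fed B1 and the others. The gamma and delta subunits of the central stalk, Atp5f1c and ATP5F1D, chosen after their values were seen, had log2 fold changes of -0.52 and -0.68 with all libraries and 0.19 and 0.29 without fed B1, and neither passed.

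The c-ring carries protons through the membrane, and its subunit c is encoded here by 2 ATP5MC3 genes. ATP5MC3 10008719 had 241, 207 and 250.4 CPM in starved A6, C6 and E6, against 548, 275 and 153 CPM in fed B1, D1 and E1 (log2 fold change -0.48, SE 0.455, edgeR adjusted p = 0.574, and 0.12 without fed B1). Gene 10019858 had 127, 113 and 136 CPM in starved A6, C6 and E6, against 371, 162 and 82.1 CPM in fed B1, D1 and E1 (log2 fold change -0.71, SE 0.502, edgeR adjusted p = 0.450, and 0.03 without fed B1). In both, all 3 starved values lay between fed E1 and fed D1. The 5 genes of the peripheral stalk, which holds the head still, had log2 fold changes of -0.96 to -0.29 with all libraries. Without fed B1 these were -0.22 to 0.41. In both comparisons 0 passed, beside 5.16% of all tested genes called with all libraries.

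Among the other FO subunits, the lowest fitted fold changes were those of ATP5MG 10020595, Atp5md 10013781 and ATP5MD 10021025. ATP5MG, subunit g, which takes part in pairing ATP synthases into dimers, had in gene 10020595 53.05, 38.2 and 49.4 CPM in starved A6, C6 and E6, against 219.5, 71.8 and 50.7 CPM in fed B1, D1 and E1 (log2 fold change -1.28, SE 0.526, edgeR adjusted p = 0.202). Its unadjusted p was 0.0397. The starved values overlapped those of fed E1, and the log2 fold change was -0.39 without fed B1 (edgeR adjusted p = 0.306). The other ATP5MG gene, 10022202, had 43.8, 47.4 and 73.4 CPM in starved A6, C6 and E6, against 107, 32.02 and 34.7 CPM in fed B1, D1 and E1 (log2 fold change -0.08, SE 0.488, edgeR adjusted p = 0.943, and 0.72 without fed B1). Its starved values lay above fed D1 and E1.

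Atp5md, also called USMG5 or DAPIT, a small subunit needed for normal amounts of ATP synthase in mammals, had in gene 10013781 28.9, 31.3 and 37.7 CPM in starved A6, C6 and E6, against 169.9, 44.6 and 25.5 CPM in fed B1, D1 and E1 (log2 fold change -1.29, SE 0.627, edgeR adjusted p = 0.275). Fed B1 lay far above the other 5 libraries, and without it the log2 fold change was -0.11. The other gene, ATP5MD 10021025, was low, with 0.921, 0.922 and 0.808 CPM in starved A6, C6 and E6, against 5.33, 2.35 and 0.462 CPM in fed B1, D1 and E1 (log2 fold change -1.58, SE 0.749, edgeR adjusted p = 0.266, and -0.69 without fed B1). ATP5S, also called factor B or DMAC2L, had 38.95, 20.03 and 30.1 CPM in starved A6, C6 and E6, against 17.4, 15.6 and 23.6 CPM in fed B1, D1 and E1 (log2 fold change 0.66, SE 0.307, edgeR adjusted p = 0.259, and 0.60 without fed B1). Here fed B1 was not the highest library, and fed E1 lay above starved C6.

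Where a symbol is shared by several genes, the share of each gene in the summed FPKM of its symbol needs no scaling between libraries. The shares of starved and fed livers did not overlap for 4 of the 13 shared symbols, where they did not overlap for 34.2% of the 2013 symbols of the table with 2 or more tested genes. Near-identical copies may share reads, and how the counting split them is not given. With 3 libraries against 3, the smallest p that an exact permutation test can give is 0.1, which each of the 4 reached; adjusted over the 17 shares compared, it was 0.425.

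The widest difference was in ATP5MG, where gene 10022202 took 45.2, 55.4 and 59.7% in starved A6, C6 and E6, against 32.8, 30.8 and 40.6% in fed B1, D1 and E1. Atp5f1a 10021778 took 67.4, 68.8 and 67.3% in starved A6, C6 and E6, against 43.96, 47.5 and 66.3% in fed B1, D1 and E1, so that fed E1 lay within 1 percentage point of starved E6 while fed B1 and D1 lay far below. UQCRFS1 10015494 took 81.3, 87.9 and 85.4% in starved A6, C6 and E6, against 77.3, 74.3 and 77.8% in fed B1, D1 and E1. UQCRC2 10008443, chosen like UQCRFS1 after its values were seen, took 74.7, 79.3 and 76.6% in starved A6, C6 and E6, against 72.6, 74.3 and 71.4% in fed B1, D1 and E1, a narrow gap between starved A6 and fed D1. Fed B1 lay between the other fed libraries for UQCRFS1, UQCRC2 and ATP5MG, and was the lowest for Atp5f1a.

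**Figure D4:**
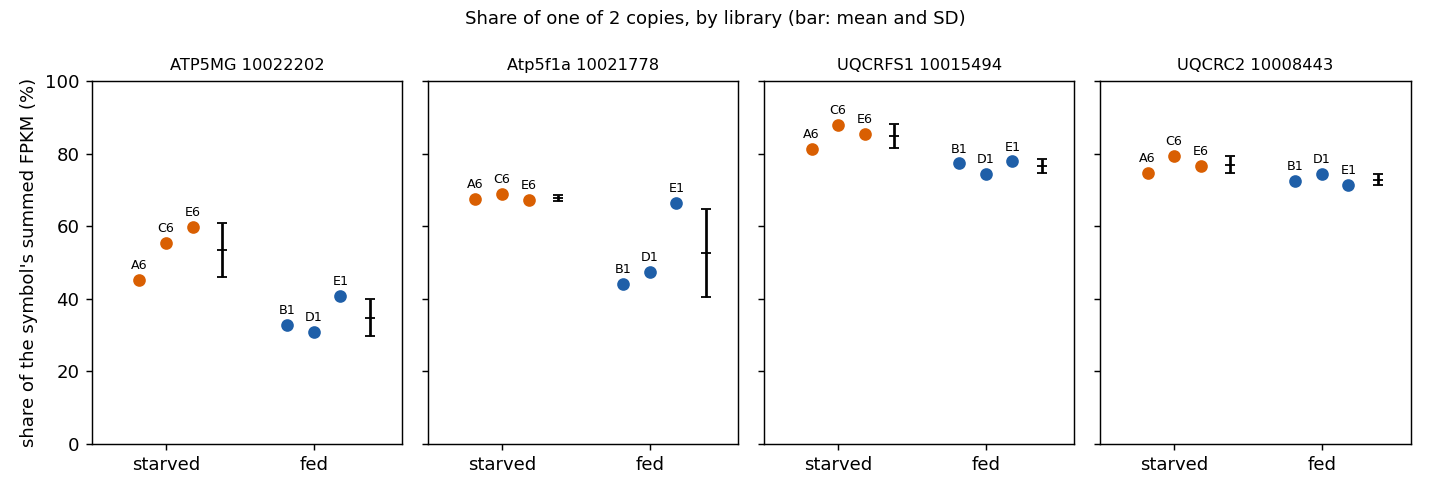
Share of 1 of 2 genes in the summed FPKM of its symbol, in percent, for each library of the starved (orange) and fed (blue) groups, with mean and SD as black bars, for Atp5f1a, ATP5MG, UQCRFS1 and UQCRC2. Only the 4 of 13 shared symbols whose groups did not overlap are drawn, so all 3 starved libraries lie above all 3 fed ones in each panel. Over all symbols with 2 or more tested genes, 34.2% did not overlap. In Atp5f1a fed E1 lies just below the starved libraries.

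The genes outside the rule were chosen after their values were seen. Cytochrome c, the mobile carrier between complexes III and IV, was named in 3 of the 8, under the symbol cyc. Of these 2 fell, beside 5.16% of all tested genes called in either direction. The gene cyc 10005625 had 1.56, 0.593 and 1.47 CPM in starved A6, C6 and E6, against 11.4, 12.7 and 11.01 CPM in fed B1, D1 and E1 and was 9.67-fold lower (log2 fold change -3.27, SE 0.395, edgeR adjusted p = 0.00623, and -3.30 without fed B1). Its call held in the 15 alternatives that tested it, with a highest adjusted p of 0.0422; the filter of 1 CPM in every library removed it. The gene cyc 10019846 had 5.24, 1.38 and 2.64 CPM in starved A6, C6 and E6, against 46.2, 14.01 and 28.2 CPM in fed B1, D1 and E1 (log2 fold change -3.25, SE 0.585, edgeR adjusted p = 0.0216, and -2.77 without fed B1). Its call ended without starved A6, C6 or E6, with edgeR adjusted p of 0.0561, 0.0844 and 0.106. The starved values lay below all fed values in both genes, whose means over the 6 libraries were 18.5 and 60.5 FPKM. The third cyc gene, 10018096, had too few counts to be tested. The coding lengths were 351 bases for 10005625, 249 for 10019846 and 318 for 10018096. Whether each encodes a whole cytochrome c was not tested.

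The other 5 of the 8 were complex IV subunits, and 0 of them passed with or without fed B1. Over all tested genes 5.16% were called with all libraries, and 5.81% rose and 6.5% fell without fed B1. Cytochrome c oxidase subunit 4 isoform 1 (10018916) had 72.03, 50.9 and 67.5 CPM in starved A6, C6 and E6, against 161, 39.8 and 39.4 CPM in fed B1, D1 and E1 (log2 fold change -0.33, SE 0.546, edgeR adjusted p = 0.760, and 0.68 without fed B1). Isoform 2 (10017679) had 276, 342 and 347 CPM in starved A6, C6 and E6, against 366, 238 and 277 CPM in fed B1, D1 and E1 (log2 fold change 0.13, SE 0.303, edgeR adjusted p = 0.831, and 0.32 without fed B1). In mammals, ATP bound to isoform 1 of subunit 4 inhibits the enzyme. For isoform 1 starved livers lay above fed D1 and E1 and below fed B1, and for isoform 2 the groups overlapped. The 2 subunit 6A genes and the subunit 6C-1 gene had log2 fold changes of -0.39, -0.10 and -1.03 in the order 10021655, 10023472 and 10004212. Without fed B1 they were -0.05, 0.84 and -0.37. The 2 ndufa4 genes carry the product name of a complex IV subunit but stand in the list of assembly factors. The abundant one, 10021454, with a mean of 677 FPKM, had 170.3, 126 and 173 CPM in starved A6, C6 and E6, against 383, 134 and 144 CPM in fed B1, D1 and E1 (log2 fold change -0.49, SE 0.445, edgeR adjusted p = 0.557, and 0.17 without fed B1), with overlapping groups; 10015051 had too few counts to be tested.

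Genes that assemble, control or work beside the 3 complexes were taken from lists of symbols. Of 32 tested assembly factors, leaving out ndufa4, 0 rose and 1 fell, beside 5.16% of all tested genes called in either direction, with a median log2 fold change of -0.36. Without fed B1, 2 rose and 2 fell, beside 5.81% and 6.5% of all tested genes, with a median of 0.14. The one that fell, Higd1a 10022233, which associates with complexes III and IV in mammals, had 0.283, 0.198 and 0.220 CPM in starved A6, C6 and E6, against 2.78, 2.35 and 6.85 CPM in fed B1, D1 and E1 (log2 fold change -4.05, SE 0.597, edgeR adjusted p = 0.0117, and -4.25 without fed B1). These starved levels were low, from 4, 3 and 3 counts in A6, C6 and E6. Leaving out starved A6, C6 or E6 ended the call of Higd1a, with an edgeR adjusted p of up to 0.0669. The filter of 1 CPM in every library removed this gene. Without fed B1 the genes that rose were lrpprc, which stabilises mitochondrial mRNAs, and COA1 (log2 fold changes 2.29 and 1.06, edgeR adjusted p = 0.0264 and 0.0365). The copper chaperone sco2 fell beside Higd1a (log2 fold change -1.22, edgeR adjusted p = 0.0306).

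Of 14 tested regulators of mitochondrial genes 1 rose and 2 fell with all libraries, beside 5.16% of all tested genes called in either direction. Without fed B1, 2 rose and 3 fell, beside 5.81% and 6.5% of all tested genes. PPARGC1A, a coactivator of mitochondrial and gluconeogenic genes, had 23.2, 11.9 and 32.2 CPM in starved A6, C6 and E6, against 0.580, 1.84 and 2.85 CPM in fed B1, D1 and E1 (log2 fold change 3.63, SE 0.566, edgeR adjusted p = 0.0140, and 3.26 without fed B1). Its call ended without starved A6, starved E6 or fed D1, and the filter of 1 CPM in every library removed it. The 2 genes for the related coactivator Pprc1, 10012794 and 10013806, fell by 2.35 and 1.23 on the log2 scale (edgeR adjusted p = 0.0319 and 0.0317). Their log2 fold changes were -2.53 and -1.10 without fed B1. Each call ended in 7 of the 16 alternatives, among them both fits on FPKM. Nrf1, a transcription factor of respiratory genes, and TFAM, which packages mitochondrial DNA, did not pass with all libraries but did without fed B1: nrf1 rose (log2 fold change 1.49, edgeR adjusted p = 0.0311) and TFAM fell (log2 fold change -0.70, edgeR adjusted p = 0.0441).

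Of 9 tested carriers and channels for nucleotides, phosphate and protons 1 rose and 0 fell with all libraries, and 2 rose and 0 fell without fed B1. Over all tested genes 5.16% were called with all libraries, and 5.81% rose and 6.5% fell without fed B1. The uncoupling protein gene ucp2 10020926, whose product lies in the same membrane, had 1240, 1238 and 1399 CPM in starved A6, C6 and E6, against 225, 193 and 252 CPM in fed B1, D1 and E1 (log2 fold change 2.53, SE 0.311, edgeR adjusted p = 0.00636, and 2.54 without fed B1). The groups were far apart, and the call held in all 16 alternatives, with a highest adjusted p of 0.0462. Slc25a5 10012301, the carrier that exchanges ADP for ATP across that membrane, had 1338, 1583 and 1823 CPM in starved A6, C6 and E6, against 1300, 843 and 661 CPM in fed B1, D1 and E1 (log2 fold change 0.76, SE 0.364, edgeR adjusted p = 0.270). It passed without fed B1 (log2 fold change 1.07, edgeR adjusted p = 0.0401). Of the 9 tested genes of complex II, the succinate dehydrogenase that feeds electrons to complex III through ubiquinone, 0 passed with or without fed B1, with median log2 fold changes of -0.30 and 0.26.

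**Figure D5:**
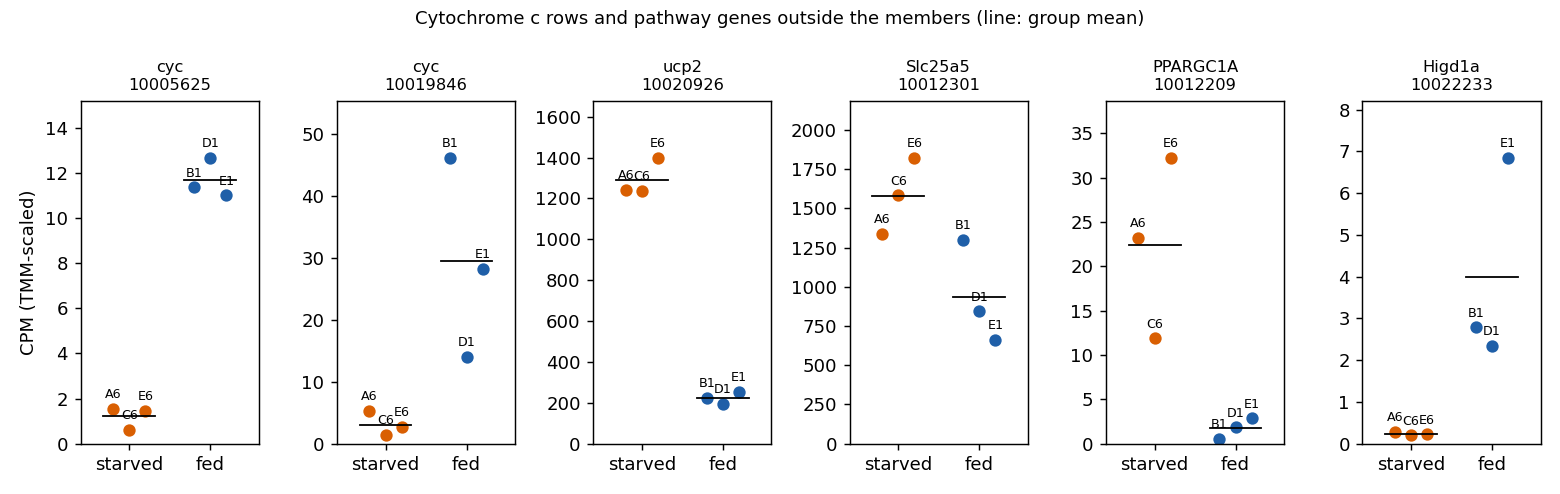
Level in TMM-scaled CPM of 2 cytochrome c genes, ucp2, Slc25a5, PPARGC1A and Higd1a in each library of the starved (orange) and fed (blue) groups, with a line at each group mean and a separate axis per gene. All but Slc25a5 were drawn because they passed the test with all libraries. Slc25a5 did not pass it, and the Pprc1 genes, which fell and passed, are not drawn. Starved and fed libraries do not overlap in any panel, which choosing genes by the test favours. In Slc25a5 starved A6 lies just above fed B1. Over all tested genes the groups did not overlap for 31.1%. The genes ucp2, Slc25a5 and PPARGC1A are higher and the 2 cyc genes and Higd1a lower in starved livers.

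In the authors' deposited table, with 1 fold change (a ratio) and 1 q-value for each gene, 0 of the 45 genes had a q under 0.05, where 9.49% of the 16166 genes with a q did. The lowest q of the 45 in the authors' deposited table was 0.0605. The ratios in the authors' deposited table ran from 0.330 to 1.75, with 7 of 45 above 1. For the 2 cyc genes that fell, the authors' deposited table gives ratios of 0.103 and 0.105, with q = 8.92e-12 and 1.36e-06.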

How the data were processed

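Total RNA from liver was extracted with TRIzol, made into libraries with the TruSeq Stranded mRNA kit and read from both ends on an Illumina HiSeq instrument, per the labels' protocols. The submitters' processing notes name HTSeq, Cufflinks, HISAT2 and Trimmomatic, without versions or roles; the genome build, and whether counting used the strand, are not given in the sources used here, so overlapping, antisense and near-identical genes may share reads. The counts deposited by the authors are raw. The FPKM deposited by the authors equal the count over the column total and a fixed length for each gene; 99.9948% of these lengths were whole within 0.01 bases and 100% were multiples of 3, as coding lengths are. The table deposited by the authors for starved over fed gives, for each gene, a fold change (a ratio) and a q-value from a test that is not stated; its direction matched that of the FPKM in 96.8% of genes. Read statistics were deposited as numbers per alignment class, per the file headers.

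Samples were grouped by title; the codes share a single letter, E, across groups and what they stand for is not stated, so libraries were not paired. Within groups, the chi-square per degree of freedom between libraries' counts was 33.6 to 149, far above the value near 1 of repeat counts. This cannot tell separate fish from separate preparations of the same fish. Each library was treated as 1 sample. The test was that of edgeR 4.0.16, run in R 4.3.3 (filterByExpr defaults, TMM, robust quasi-likelihood F test, starved minus fed, Benjamini-Hochberg over all tested genes, calls at an adjusted p under 0.05). CPM use the TMM factors; standard errors are the fold change over the square root of F. Fed B1 over D1 and E1 was taken with 0.5 CPM added to each. The procedure was tested on simulated data. The alternatives were DESeq2 1.42.0, limma 3.58.1 (voom, and trend on log2(FPKM + 1) and log2(FPKM + 0.1)), upper-quartile scaling, other low-count filters, a non-robust fit, the 20 most abundant genes left out and each library left out; quality weights per library were added after seeing the data. The members and lists were chosen with earlier results of these data known. Named members are those called, the 3 highest by mean FPKM of each complex, the 3 largest rises and falls among members whose average log2 CPM was 3 or more, and other genes of the same symbol. Kinases and binding proteins with ribosomal-like symbols were left out of the ribosomal list. No sequences were used.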

Additional observations from a re-analysis of the deposited data

How the results depend on the processing

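Across the 16 alternatives, of which the filter of 1 CPM in every library removed ATP5MD 10021025 and cyc 10005625, 0 of the 45 genes were called lower in any of them. The number called higher was 0 to 2 when 1 library was left out, with the 2 found without fed B1 only, and 2 with quality weights per library, which were chosen after seeing the data. The median log2 fold change of the 45 genes lay between -0.85 and 0.18 when 1 library was left out, the positive value being that without fed B1, and was 0.08 with quality weights and -0.25 in both fits on FPKM. Over all genes the count of calls was 688; it was 1655 with DESeq2, 1951 with quality weights and 102 to 1704 when 1 library was left out, the lowest without starved A6 and the highest without fed B1. Without starved C6, starved E6 and fed D1 it was 146, 131 and 232. Of 398 values for the 23 named genes of the 45 and the 2 cyc genes, 391 kept their direction where called and their side of the threshold. The 4 that gained a call were COX7A2L and Atp5f1a 10021778 without fed B1 and with quality weights, and the 3 that lost one were those of cyc 10019846 given above; the cause was not tested. The sign of the fitted fold change differed in at least 1 alternative for 14 of the 23 named genes, none of which was called with all libraries. No paired analysis was possible because the groups share fewer than 2 codes: only the letter E occurs in both. The median standard error of 0.479 on the log2 scale limits what 3 libraries a group can show.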
